A study of Mus musculus with 72 samples.

Results

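Cachexia is a wasting of body mass that tumours can bring about, and the liver takes part in it. C26 cachexia against PBS in whole liver nuclei is the comparison described here, over all genes but with weight on the cells of the liver that are not hepatocytes. It rests on the 8 whole liver libraries labelled C26 cachexia or C26 PBS, 4 animals in each group, out of 72 libraries in the study. All 8 mice were BALB/c and carried the transgenes CAG-Sun1/sfGFP and Albumin-Cre (Hep-INTACT), so the controls carry them too. Albumin-Cre acts in hepatocytes, where it switches on a green fluorescent nuclear envelope protein by which hepatocyte nuclei can be pulled out with beads. The cachexia animals carried C26 tumour cells, a colon carcinoma line that grows in BALB/c mice, and their livers were taken after more than 10% of body weight had been lost. Zeitgeber time 9 h is given for the livers of both groups. The control animals are labelled PBS. The labels used here give neither sex nor age nor the number of tumour cells, and the weight loss is stated only for the tumour-bearing group.

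Each of the 8 animals gave a second library, from its bead-bound hepatocyte nuclei, and these serve as a contrast below. For comparison the study also held 8025 tumours in C57BL/6N mice, which cause cachexia as well, and NC26 tumours in BALB/c mice, which do not cause weight loss. Each of these has its own 4 PBS animals and the same transgenes. Tumour line, mouse strain and cohort cannot be told apart between C26 and 8025, and tumour line and cohort cannot be told apart between C26 and NC26. A further 4 C26 animals were sampled before cachexia and enter here through the common estimate of the spread and through the mean levels of 5 genes. A cohort with MC38 tumours enters through that spread and through its 4 PBS animals, which helped to sort genes below.

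Besides hepatocytes, the liver holds Kupffer cells, which are resident macrophages that clear particles and old red cells from portal blood, and sinusoidal endothelial cells, which line the capillaries and take up waste molecules through scavenger receptors. Stellate cells store vitamin A next to the sinusoids and can turn into matrix-producing myofibroblasts, and bile duct cells line the ducts that drain bile. In inflammation, monocytes and neutrophils enter the liver from blood, guided by chemokines and adhesion molecules. Cytokines of the interleukin 1 and interleukin 6 families make hepatocytes secrete acute phase proteins.

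Total counts ran from 13.8 M to 26.9 M over the 8 libraries, so that 1 count-per-million unit (CPM) stood for 12.9 to 26.4 counts. CPM values here are scaled to the effective library size and are levels of nuclear RNA counted over the whole gene with its introns. The library of PBS animal 1 stood apart. It had 1.09% of its counts in 5 genes with reads like ribosomal RNA, where the other 7 libraries had 5% to 7.33%. Compared gene by gene, animals of a group differed beyond counting error, with a chi-square per degree of freedom of 132 to 183 for the 3 pairs with PBS animal 1 and 32.6 to 42.8 for the other 3 PBS pairs. Without those 5 genes the values were 56.6 to 78.7 and 29 to 34.7, beside 33.9 to 78 for the 6 cachexia pairs. Of 13738 genes tested with edgeR, 1627 (11.8%) were higher and 1412 (10.3%) lower in cachexia at an adjusted p under 0.05, of which 676 and 484 by at least 2-fold. Without PBS animal 1 the counts were 1386 and 1037. Scaled to library totals with no further factor, 1213 genes were higher and 2260 lower, and the median log2 fold change of all genes was -0.12. With the scaling used throughout, that median was -0.02. The libraries carried the RNA of liver: Alb, the gene of albumin, stood at 5169.7, 4637, 6741 and 6441 CPM in cachexia animals and 8229.7, 5623, 4202 and 4641 CPM in PBS animals, and its log2 fold change was 0.02 (adjusted p = 0.97). Of the 15 genes of the hepatocyte list, 3 rose (Hal, Asgr1 and Glul) and 3 fell (Ttr, Cebpa and Cyp2f2), 20% each. Without cachexia animal 3, cachexia animal 4 or PBS animal 1, 1 rose. The calls of Hal, Asgr1 and Glul were lost without cachexia animal 3, cachexia animal 4, PBS animal 1, PBS animal 2 or PBS animal 3 (adjusted p = 0.092, 0.17, 0.077, 0.14 and 0.066), without cachexia animal 3 or PBS animal 1 (adjusted p = 0.076 and 0.076) and without cachexia animal 4 (adjusted p = 0.053), in that order.

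Among the largest changes were genes of hepatocyte products. Mt2 (chr8:94172618-94173567, mm10), a metallothionein that binds zinc and copper, stood at 192, 158, 169 and 185 CPM in the 4 cachexia animals and at 0.623, 0.693, 0.438 and 1.35 CPM in the 4 PBS animals. Lcn2 (chr2:32384637-32387739, mm10), the gene of lipocalin 2, which keeps iron from bacteria, was at 134, 125, 198 and 138 CPM against 1.54, 0.32, 0.585 and 2.23 CPM. Every cachexia value of both genes lay far above every PBS value, and their log2 fold changes were 7.85 (SE 0.69) and 7.0 (SE 0.68). Of 25 acute phase genes, 24 rose and none fell, beside 11.8% and 10.3% of all genes; their median log2 fold change was 3.01. Among them Hpx, which encodes the haem scavenger hemopexin, rose 7.67-fold, from 135 ± 40.1 CPM to 1039 ± 295 CPM (SD, n = 4 each). At the other end, Mup21 (chr4:62147832-62150841, mm10), a major urinary protein gene, fell from 224, 169, 147 and 103 CPM to 2.86, 2.92, 1.06 and 2.18 CPM, with a log2 fold change of -6.13. Slc22a28, an organic anion transporter gene, had a log2 fold change of -4.67. Members of the Saa, Orm and Mup families are near-identical copies, so reads may be split among copies.

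To find RNA of other cells without a list, genes were sorted by their level in hepatocyte nuclei against whole liver nuclei in the 12 PBS animals of the other 3 cohorts. Genes at least 4-fold lower in hepatocyte nuclei numbered 1774 of 14054 (12.6%). Of these, 1732 were tested in the cachexia comparison, where 282 (16.3%) rose and 153 (8.83%) fell, the median log2 fold change being 0.08. Of the other 12006 genes, 11.2% rose and 10.5% fell, with a median of -0.03. In hepatocyte nuclei of the same animals, 222 of the 282 (78.7%) were also called higher and 33 of the 153 (21.6%) lower. Over all genes these shares were 83.2% and 69.3%. The sorting used PBS animals, and in which cells a gene changed in cachexia was not tested. In whole liver nuclei, fewer cells of a type and less RNA per cell cannot be told apart.

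By the largest rises among these genes, Slc10a6 (chr5:103605711-103629403, mm10), which encodes an uptake transporter for sulfated steroids, came first. It stood at 7.49, 8.64, 14.2 and 13.5 CPM in cachexia animals against 0.374, 0.427, 0.244 and 0.587 CPM in PBS animals, 26.8-fold higher (log2 fold change 4.75, SE 0.52). Ms4a4a (chr19:11375488-11392915, mm10), a membrane protein gene of macrophages, stood at 4.68, 12.7, 8.99 and 18.3 CPM against 1.33, 0.533, 0.438 and 0.645 CPM, and its neighbour in family Ms4a8a at 5.36, 5.12, 10.0 and 14.5 CPM against 0.83, 1.33, 0.438 and 0.704 CPM. In each of the 3 genes, the lowest cachexia animal was above the highest PBS animal, while the cachexia animals themselves differed widely in Ms4a4a. Clca3a1, a chloride channel regulator gene, rose 8.86-fold to 93.9 ± 18.8 CPM (SD, n = 4), and Csf2rb2, the interleukin 3 receptor beta chain of mice, rose 15.2-fold. Svopl, a transporter-like gene, rose as well, with a log2 fold change of 4.39 that was 3.42 without cachexia animal 4.

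The largest falls among genes low in hepatocyte nuclei were smaller. Nes (chr3:87971093-87980451, mm10), which encodes the filament protein nestin, fell from 5.81, 4.96, 4.29 and 7.86 CPM in PBS animals to 0.936, 0.607, 0.887 and 0.7 CPM in cachexia animals (log2 fold change -2.87, SE 0.43). Clstn2, which encodes a calsyntenin, fell by 2.25 on the log2 scale, and Ltbp4 (chr7:27305141-27337612, mm10), which binds latent TGF-beta in matrix, stood at 9.31, 8.3, 9.11 and 7.39 CPM against 14.6, 22.8, 32.5 and 36.6 CPM. Lrrn3, Pcdh12 and Rgs7bp followed, with log2 fold changes of -1.36, -1.36 and -1.32. Pcdh12 encodes an endothelial protocadherin. Each of these 6 genes had all 4 cachexia values below all 4 PBS values.

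**Figure D1:**
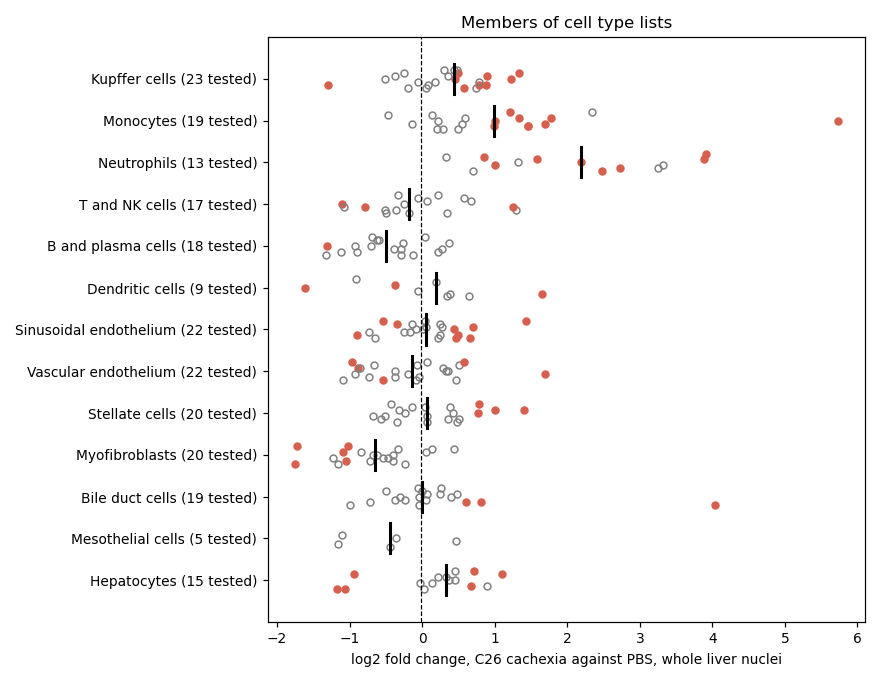
Log2 fold change of cachexia against PBS in whole liver nuclei (x axis) for each tested member of 13 cell type lists (y axis). Filled points passed the test at an adjusted p under 0.05, open points did not, black bars mark each list's median and the dashed line the median of all genes (-0.02). The medians of neutrophil (2.19) and monocyte genes (0.99) lie farthest to the right, and those of myofibroblast (-0.65) and B cell genes (-0.49) to the left of the line.

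Over 15 lists of cell types other than hepatocytes, 266 genes were named, 260 are in the table and 214 passed the filter on low counts. Of the 214, 42 (19.6%) rose and 18 (8.41%) fell, and 136 belonged to the genes low in hepatocyte nuclei. The filter can pass a gene through the group where it is high, so that these counts do not speak for members that were left out. The plot of log2 fold changes by list shows each tested member. In the 4 C26 animals sampled before cachexia, Cd163 stood at 48.5 ± 12.2 CPM, Csf2rb at 19.6 ± 6.23 CPM, Plxnc1 at 158 ± 37.2 CPM, Col6a3 at 23 ± 2.84 CPM and Mki67 at 9.55 ± 3.42 CPM (mean ± SD, n = 4), values given without a test. In PBS animals of the C26 cohort they were at 36.8 ± 14.4, 7.8 ± 1.63, 90.4 ± 6.64, 29.7 ± 3.68 and 4.68 ± 0.697 CPM.

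Kupffer cell and macrophage genes rose in part. Of 24 genes, 23 were tested, 8 rose (34.8%, beside 11.8% of all genes) and 1 fell, the median log2 fold change being 0.44. Msr1 is not in the table used here. The summed level of the list was 1239.9, 946, 1077 and 1074 CPM in cachexia animals 1 to 4 and 902, 857, 738 and 906 CPM in PBS animals 1 to 4. Every cachexia animal was above every PBS animal, by a small margin in cachexia animal 2, and cachexia animal 1 was highest. The most abundant members of the list were Mrc1 (mean 247 against 194 CPM) and Mertk (229 against 163 CPM), both described below. Without cachexia animal 1, 4 genes rose, and 5 rose when scaled to library totals. The gene that fell was Id3, an inhibitor of transcription factors (log2 fold change -1.3), whose call was lost without cachexia animal 1, cachexia animal 2, cachexia animal 3, cachexia animal 4, PBS animal 3 or PBS animal 4 (adjusted p = 0.11, 0.08, 0.083, 0.055, 0.16 and 0.13).

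By fold, the largest rise of the list was in Cd163 (chr6:124304651-124330527, mm10), the scavenger receptor for haemoglobin bound to haptoglobin. Its level was 90.6, 85.5, 92.8 and 105 CPM in cachexia animals and 55.8, 36.1, 20.9 and 34.5 CPM in PBS animals, 2.53-fold higher (log2 fold change 1.34, SE 0.34, adjusted p = 0.0038). Vsig4 (chrX:96247203-96293438, mm10), a complement receptor of resident macrophages, stood at 77, 47, 59 and 48.3 CPM against 37.5, 35.3, 23.2 and 28.9 CPM, and C1qb (chr4:136880145-136886177, mm10), a chain of complement C1q, at 15.3, 10.9, 14.7 and 14.3 CPM against 8.55, 6.61, 6.72 and 10.2 CPM. Groups did not overlap in any of the 3 genes. Slc11a1, a metal transporter of the phagosome, rose 1.84-fold, from 3.52 ± 1.05 CPM to 6.45 ± 1.31 CPM. Defining genes of Kupffer cells follow. Clec4f, a lectin receptor of mouse Kupffer cells, stood at 74.3, 49.2, 51.3 and 51 CPM against 33.8, 41.1, 32 and 44.5 CPM, and its call was lost without cachexia animal 1, PBS animal 1 or PBS animal 3 (adjusted p = 0.083, 0.053 and 0.059). Timd4, a receptor for dying cells, was at 33, 17.7, 23.2 and 17.2 CPM against 25.7, 22.3, 19.5 and 18.8 CPM and did not pass the test (log2 fold change 0.08, SE 0.20). Adgre1, which encodes F4/80, did not pass either (log2 fold change 0.30, adjusted p = 0.31), nor did the abundant mannose receptor gene Mrc1 (0.35, adjusted p = 0.092, which was 0.021 without PBS animal 1). Csf1r, the receptor that macrophages need for survival, had a log2 fold change of 0.45, and its call was lost without cachexia animal 1, cachexia animal 3, PBS animal 1, PBS animal 2 or PBS animal 3 (adjusted p = 0.17, 0.057, 0.1, 0.055 and 0.11). Mertk, a kinase receptor for the uptake of dead cells, had one of 0.49, lost without cachexia animal 1, cachexia animal 4 or PBS animal 4 (adjusted p = 0.064, 0.051 and 0.06). Mertk kept 59.8% of its whole liver level in hepatocyte nuclei, against 14.3% for Cd163 and 14.5% for Clec4f.

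**Figure D2:**
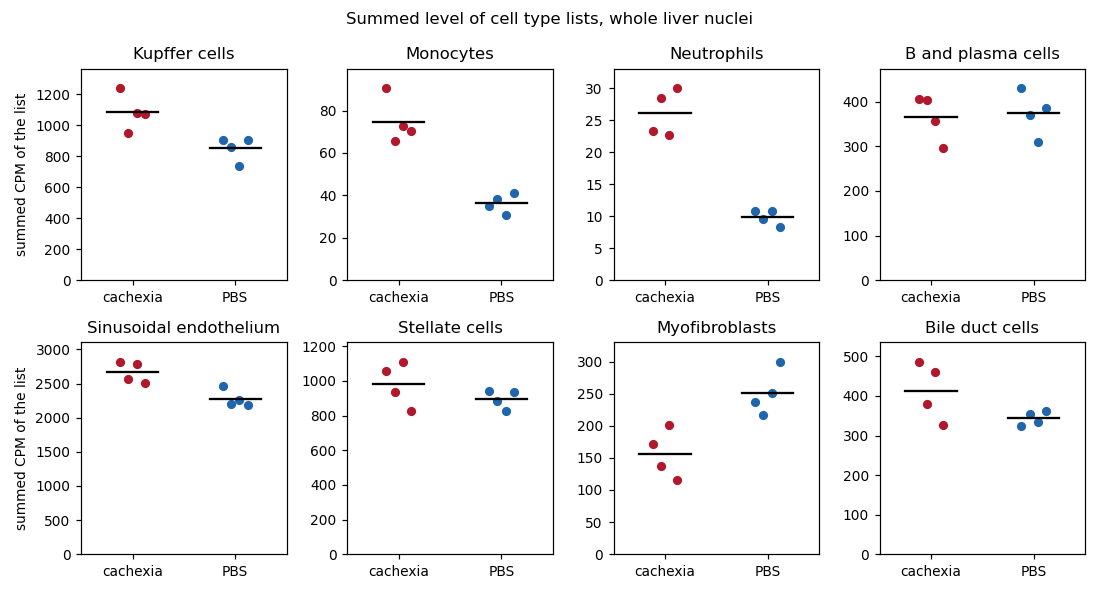
Summed CPM of the members of 8 cell type lists (panels) in each of the 4 cachexia and 4 PBS whole liver libraries, with the mean as a bar. The y axes start at 0. Monocyte, neutrophil and Kupffer cell sums of all 4 cachexia animals lie above those of all PBS animals, and the myofibroblast sums lie below.

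Genes of monocytes and recruited myeloid cells rose in part. Of 20 genes, 19 were tested, 9 rose (47.4%, beside 11.8% of all genes) and none fell, the median log2 fold change being 0.99. In 10 of the 19 all cachexia values lay above all PBS values, beside 12.9% of all genes. Ly6c2 had at most 5 counts in a library and was not tested. The summed level was 90.7, 65.7, 72.7 and 70.1 CPM in cachexia animals 1 to 4 against 34.8, 38.3, 30.9 and 41.1 CPM in PBS animals. Both groups were far apart.

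Csf2rb (chr15:78325990-78351001, mm10), the beta chain that the receptors of GM-CSF, interleukin 3 and interleukin 5 share, was at 27.5, 20.5, 25.4 and 27.7 CPM in cachexia animals and 5.98, 9.65, 7.01 and 8.57 CPM in PBS animals, 3.24-fold higher (log2 fold change 1.7, SE 0.24, adjusted p = 3.3e-06). Its neighbour Csf2rb2 (chr15:78282508-78305721, mm10) rose from 2.37, 1.65, 1.8 and 2.35 CPM to 26.8, 30.9, 35.7 and 31.4 CPM. Both genes are near-identical copies side by side, so reads may be split between them. Itgam (chr7:128062640-128118491, mm10), the CD11b integrin chain, was at 5.56, 4.51, 5.03 and 3.19 CPM against 1.91, 1.44, 1.32 and 2 CPM, and Plac8 (chr5:100553733-100572205, mm10), a small protein gene of inflammatory monocytes, at 13.6, 9.14, 9.11 and 9.72 CPM against 4.61, 4.48, 3.65 and 5.22 CPM. Their log2 fold changes were 1.46 (SE 0.23) and 1.21 (SE 0.21), with no overlap of the groups. F13a1, which encodes a coagulation factor chain of monocytes, rose 2.52-fold, and the Fc receptor genes Fcgr4 and Fcgr3 rose 2.01-fold and 1.99-fold. Chil3, a chitinase-like gene of activated macrophages, was called from few reads (24 counts over the 4 cachexia libraries and 0 over the PBS libraries). Ccr2, the chemokine receptor by which monocytes leave the marrow, was at 4.84, 2.92, 3.79 and 1.48 CPM against 2.86, 2.29, 2.44 and 3.17 CPM; its groups overlapped and it did not pass the test (log2 fold change 0.29, SE 0.29).

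Neutrophil genes had the highest median of the cell type lists. Of 20 genes 13 were tested, 8 rose (61.5%, beside 11.8% of all genes) and none fell. The other 7 (Ly6g, Retnlg, Camp, Ngp, Ltf, Stfa2l1 and Elane) had at most 7 counts in a library. With the 8 cachexia and PBS libraries fitted alone, 4 rose (Csf3r, Il1r2, Hdc and Fpr1) and the list's median was 1.32, as S100a8, S100a9, Cxcr2 and Mmp8 were then not tested. The call of Cxcr2 was lost without cachexia animal 2 (adjusted p = 0.053), and Mmp8 was called from 34 counts over the 4 cachexia libraries and 2 over the PBS libraries. The summed level of the list was 23.3, 28.5, 22.7 and 30.1 CPM in cachexia animals and 10.8, 9.55, 10.8 and 8.27 CPM in PBS animals, without overlap. Csf3r (chr4:126024659-126044975, mm10), the receptor of G-CSF, stood at 10.5, 10.2, 8.34 and 8.08 CPM against 4.36, 4.48, 5.46 and 4.23 CPM (log2 fold change 1.0, SE 0.20, adjusted p = 0.00051). Il1r2 (chr1:40084768-40125226, mm10), a decoy receptor of interleukin 1, stood at 1.87, 4.28, 2.72 and 3.11 CPM against 0.457, 0.16, 0.0974 and 0 CPM; its log2 fold change was 3.92, and 5.0 without PBS animal 1. Hdc, the enzyme gene for histamine, which basophils and mast cells express too, rose 3-fold, to 4.16, 7.2, 3.79 and 12 CPM. S100a9 and S100a8, the calprotectin genes that fill neutrophils, were at 0.78, 0.72, 0.591 and 0.311 CPM and 0.312, 0.227, 0.237 and 0.155 CPM in cachexia animals. The S100a8 values rest on 18 counts over the 4 cachexia libraries and 3 over the 4 PBS libraries, and its call was lost without cachexia animal 1 or PBS animal 1 (adjusted p = 0.057 and 0.086).

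Promoters of 3 myeloid genes that rose are shown because they share a short motif. The letters GAGGAAG are the core of the binding motif of PU.1, the transcription factor of myeloid cells. In the 250 bases before the start, on either strand, 16 of 47 genes of the Kupffer cell, monocyte and neutrophil lists held it (34%), as did 9 of the 23 that rose and 7 of the 24 that did not. Of 10517 tested genes with a RefSeq promoter (GRCm38.p6), 10.9% held it. The match is a description of letters, and binding was not measured. Capitals mark the match, and the sequences run 5′ to 3′ toward the gene.
S100a8 promoter (GRCm38.p6, chr3:90668821-90669070, plus strand): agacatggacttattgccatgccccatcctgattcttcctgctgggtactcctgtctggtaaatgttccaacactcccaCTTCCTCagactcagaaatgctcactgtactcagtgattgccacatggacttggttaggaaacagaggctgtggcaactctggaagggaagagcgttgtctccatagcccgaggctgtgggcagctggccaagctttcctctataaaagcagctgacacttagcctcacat
Csf3r promoter (GRCm38.p6, chr4:126024409-126024658, plus strand): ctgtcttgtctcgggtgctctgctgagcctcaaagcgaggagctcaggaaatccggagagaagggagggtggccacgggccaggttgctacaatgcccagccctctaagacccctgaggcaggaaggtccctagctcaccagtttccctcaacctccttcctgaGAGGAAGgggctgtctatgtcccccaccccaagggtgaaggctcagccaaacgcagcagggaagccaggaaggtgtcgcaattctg
Fcgr4 promoter (GRCm38.p6, chr1:171018676-171018925, plus strand): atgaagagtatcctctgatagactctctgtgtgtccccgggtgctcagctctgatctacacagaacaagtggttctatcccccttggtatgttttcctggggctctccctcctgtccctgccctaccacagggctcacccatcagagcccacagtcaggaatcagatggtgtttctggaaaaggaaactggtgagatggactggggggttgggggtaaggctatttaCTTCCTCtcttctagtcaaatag
The match begins 171 bases before the start of S100a8, 86 before that of Csf3r and 23 before that of Fcgr4, on the minus strand in S100a8 and Fcgr4. S100a8 is the one of them whose call was lost without cachexia animal 1 or PBS animal 1 (adjusted p = 0.057 and 0.086).

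**Figure D3:**
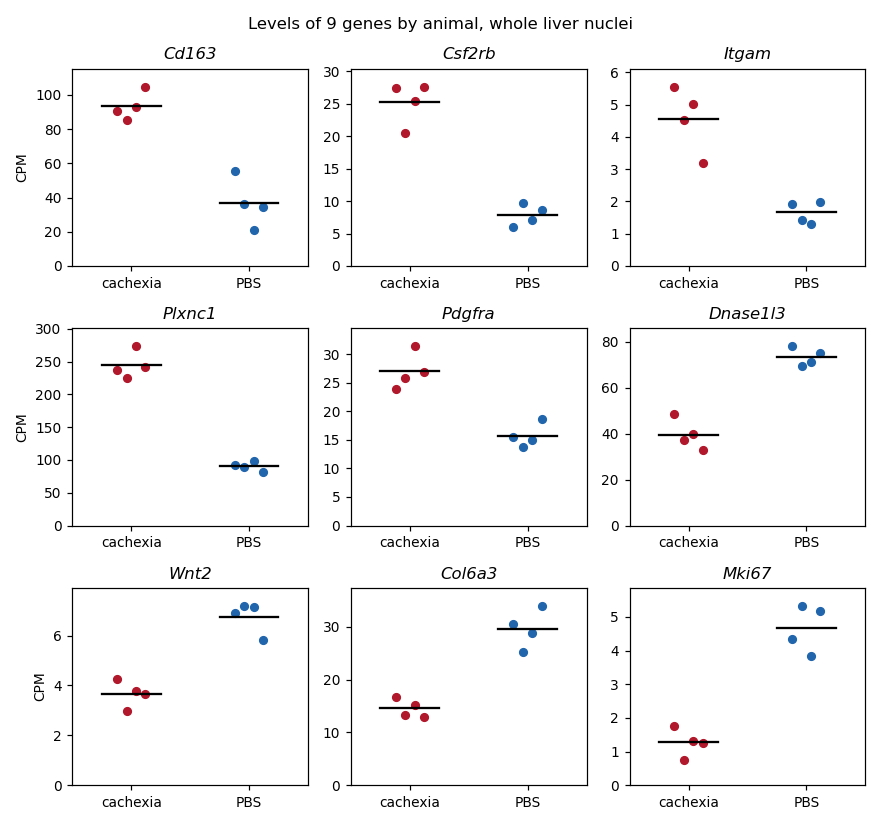
CPM (y axes from 0) of 9 genes in the 4 cachexia and 4 PBS whole liver libraries (points), with the mean as a bar. Levels of the first 5 genes, from Cd163 to Pdgfra, were higher in every cachexia animal than in any PBS animal, and those of Dnase1l3, Wnt2, Col6a3 and Mki67 were lower.

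Signals that draw and activate these cells moved in both directions. Of 26 chemokine genes only 14 were tested, as Ccl21a is not in the table and the other 11 had at most 7 counts in a library, among them Ccl2 and Cxcl2. Of the 14, 4 rose and 3 fell (28.6% and 21.4%, beside 11.8% and 10.3% of all genes). With the 8 cachexia and PBS libraries fitted alone, 1 fell. Cxcl1 (chr5:90891245-90893115, mm10), which attracts neutrophils, stood at 198, 65.2, 117 and 53.2 CPM in cachexia animals against 8.3, 8.91, 7.31 and 9.68 CPM in PBS animals, 12.7-fold higher. Cxcl1 was not low in hepatocyte nuclei, where it had 122% of its whole liver level. Ccl6, a chemokine of myeloid cells, was at 6.03, 3.15, 4.49 and 4.43 CPM against 2.91, 1.07, 0.877 and 0.763 CPM (log2 fold change 1.65 with all libraries, 2.31 without PBS animal 1). Cxcl13, which attracts B cells, had a log2 fold change of 2.0, lost without cachexia animal 3, PBS animal 1 or PBS animal 2 (adjusted p = 0.12, 0.075 and 0.057). Cxcl14 rose from at most 0.166 CPM to between 1.35 and 3.43 CPM. Ccl25 and the interferon-induced chemokine Cxcl9 had log2 fold changes of -1.25 and -1.35, with the call of Cxcl9 lost without cachexia animal 2, cachexia animal 4, PBS animal 3 or PBS animal 4 (adjusted p = 0.091, 0.097, 0.092 and 0.085). Cxcl10, induced by interferon too, had a log2 fold change of -2.53; it was -3.23 without cachexia animal 1, and its call was lost without cachexia animal 2 (adjusted p = 0.064).

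Of 26 genes of cytokines and growth factors, 22 were tested, 6 rose and 3 fell (27.3% and 13.6%, beside 11.8% and 10.3% of all genes). Inhbb (chr1:119415465-119422248, mm10), which encodes the beta B chain of activin, was at 1.25, 2.01, 2.96 and 5.52 CPM against 0.54, 0.693, 0.536 and 0.411 CPM and lay among the genes low in hepatocyte nuclei. Il33, an alarmin that stellate and endothelial cells hold in their nuclei, was at 7.75, 5.08, 7.39 and 4.82 CPM against 2.74, 2.4, 2.48 and 2.93 CPM, and Pdgfc, a growth factor for mesenchymal cells, at 171, 184, 101 and 115 CPM against 51.3, 54, 65.9 and 62.1 CPM. No group overlapped in these 3 genes. Il1rn, the interleukin 1 receptor antagonist, rose 8.03-fold and Il18bp, which binds interleukin 18, 1.66-fold. The 3 that fell were Tgfb1, Vegfa and Pdgfa, with log2 fold changes of -0.61, -0.68 and -1.03, with the call of Vegfa lost without cachexia animal 1 or cachexia animal 3 (adjusted p = 0.052 and 0.051), with the call of Pdgfa lost without cachexia animal 1, cachexia animal 4, PBS animal 3 or PBS animal 4 (adjusted p = 0.1, 0.091, 0.068 and 0.083).

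Of 27 receptor genes, 10 rose and 1 fell (37% and 3.7%, beside 11.8% and 10.3% of all genes). Osmr (chr15:6813577-6874313, mm10), the receptor of oncostatin M, stood at 110.2, 101, 130.1 and 116 CPM in cachexia animals and 32.5, 19, 17.4 and 19.5 CPM in PBS animals (log2 fold change 2.37, SE 0.22). Il17ra, the receptor of interleukin 17, was at 47.1, 32.4, 48.9 and 41.4 CPM against 11.5, 13, 13.8 and 12.3 CPM, and Il4ra, the receptor of interleukins 4 and 13, at 52.3, 51.8, 53.3 and 52.6 CPM against 18.1, 22.8, 27 and 28.6 CPM. Il1r1, the signalling receptor of interleukin 1, rose 5.98-fold, Il13ra1 3.24-fold, Tnfrsf1a 2.03-fold and Il6st, the shared gp130 chain, 2.02-fold. The one that fell was Il1rap, the partner chain of Il1r1 (log2 fold change -1.1). Of these receptors only Osmr is among the genes low in hepatocyte nuclei; Il17ra and Il4ra kept 96.8% and 91.9% of their whole liver level there.

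Few lymphocyte genes passed the test. Of 25 T and NK cell genes 17 were tested, 1 rose and 2 fell, the median log2 fold change being -0.18. These shares, 5.88% and 11.8%, stand beside 11.8% and 10.3% of all genes, and the share that fell is near that of all genes. The risen gene was Tox, a transcription factor, at 573, 618, 699 and 711 CPM against 229, 436, 219 and 209 CPM, and hepatocyte nuclei held 106% of its whole liver level. Cd3e, a chain of the T cell receptor complex, was at 0.676, 0.493, 0.473 and 0.855 CPM against 0.664, 0.533, 0.292 and 0.411 CPM, below 1 CPM in all libraries, and did not pass (log2 fold change 0.35, SE 0.42). Cd247 and Cd4 fell by 0.78 and 1.11 on the log2 scale. The call of Cd247 was lost without cachexia animal 2, cachexia animal 3, PBS animal 1 or PBS animal 2 (adjusted p = 0.096, 0.062, 0.054 and 0.068), and that of Cd4 without cachexia animal 2, cachexia animal 3, cachexia animal 4 or PBS animal 2 (adjusted p = 0.062, 0.058, 0.084 and 0.092). The 8 untested genes, Nkg7 and Cd8a among them, had at most 11 counts in a library.

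Of 20 B and plasma cell genes 18 were tested, none rose and 1 fell (5.56%, beside 10.3% of all genes), with a median of -0.49. Jchain, which joins antibody units of plasma cells, was at 0.78, 0.986, 0.769 and 1.01 CPM against 3.82, 1.76, 1.51 and 1.7 CPM, a call that was lost without PBS animal 1 (adjusted p = 0.1). Cd79a and Ms4a1, which define B cells, were below 1.1 CPM in all 8 libraries and did not pass (log2 fold changes -1.33, SE 0.75, and -0.39, SE 0.52). Without cachexia animal 1, 4 genes of this list were lower. Among 9 tested dendritic cell genes, Clec9a (chr6:129408862-129424764, mm10), the receptor by which type 1 dendritic cells sense dead cells, rose from 25.6, 16.2, 14.8 and 17.3 CPM to 59.8, 49, 74.6 and 49.3 CPM (log2 fold change 1.65, SE 0.22, adjusted p = 1.8e-06). No other tested gene of the list was called higher. Flt3, their growth factor receptor, was at 1.66, 0.758, 1.36 and 1.17 CPM against 1.12, 0.32, 0.828 and 0.822 CPM (log2 fold change 0.65, adjusted p = 0.17), while Zbtb46, a transcription factor of classical dendritic cells that endothelium expresses too, fell from 26.1, 28.8, 28 and 25.3 CPM to 20.5, 23.1, 19.4 and 20.2 CPM, and Ccr9, at below 1 CPM, fell by 1.61 on the log2 scale. Xcr1, which type 1 dendritic cells also carry, had at most 10 counts in a library and was not tested.

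Sinusoidal endothelium changed in both directions. Of 22 genes, all tested, 6 rose and 3 fell (27.3% and 13.6%, beside 11.8% and 10.3% of all genes), and the median log2 fold change was 0.05 (-0.05 when scaled to library totals, where 5 fell). The summed level was 2821, 2573, 2787 and 2508 CPM in cachexia animals and 2466, 2199.6, 2265 and 2193 CPM in PBS animals, so that both groups were close but did not overlap. Much of the gap lay in Stab2 (mean 738 against 523 CPM) and Plxnc1 (244 against 90.4 CPM). Plxnc1 (chr10:94790866-94944578, mm10), a semaphorin receptor, had the largest rise, from 92.3, 89.4, 98 and 82 CPM to 237, 225, 273 and 242 CPM (log2 fold change 1.43, SE 0.18, adjusted p = 5e-07). Stab2 (chr10:86841210-87007942, mm10), the hyaluronan scavenger receptor, stood at 789, 734, 744 and 687 CPM against 562, 521, 522 and 486 CPM, 1.41-fold higher. Its relative Stab1 had a log2 fold change of 0.66, a call lost without cachexia animal 3, cachexia animal 4 or PBS animal 1 (adjusted p = 0.054, 0.068 and 0.1). Dnase1l3 (chr14:7965190-7994182, mm10), a secreted DNase, fell from 78.1, 69.5, 71.3 and 75.2 CPM to 48.6, 37.1, 39.7 and 32.9 CPM (1.86-fold lower, adjusted p = 0.00015). Groups did not overlap in Plxnc1, Stab2 or Dnase1l3. Ptprb, a phosphatase gene of all endothelium, was at 328, 268, 333 and 273 CPM against 410.0, 302, 362 and 355 CPM and did not pass (log2 fold change -0.25, SE 0.12), nor did Lyve1 (-0.73, SE 0.35). Ldb2, a transcription cofactor, and Oit3 fell as well (log2 fold changes -0.34 and -0.54), with the call of Ldb2 lost without cachexia animal 1, cachexia animal 2, cachexia animal 3, cachexia animal 4, PBS animal 1, PBS animal 2 or PBS animal 3 (adjusted p = 0.064, 0.0501, 0.1, 0.14, 0.16, 0.056 and 0.087), with the call of Oit3 lost without cachexia animal 1, cachexia animal 2, PBS animal 1 or PBS animal 4 (adjusted p = 0.12, 0.093, 0.051 and 0.067). The count of risen members was 3 without cachexia animal 3, and that of fallen members 1 without cachexia animal 1 or without PBS animal 1.

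Of 24 genes of vascular and general endothelium, 22 were tested, 2 rose and 3 fell (median -0.14), shares of 9.09% and 13.6% that are near the 11.8% and 10.3% of all genes. Scaled to library totals, 1 rose and 5 fell. Selp (chr1:164115264-164150026, mm10), the P-selectin on which leukocytes roll, was at 5.93, 5.04, 10.9 and 5.13 CPM in cachexia animals and 1.78, 1.97, 2.19 and 2.41 CPM in PBS animals (log2 fold change 1.69, SE 0.29). Cachexia animal 3 was highest, and all 4 were above the PBS animals. Jag1, a Notch ligand, fell from 23.2 ± 2.55 CPM to 15.9 ± 1.43 CPM, and Wnt2 (chr6:17988940-18030445, mm10), the Wnt ligand that endothelium gives to hepatocytes around the central vein, from 6.89, 7.2, 7.16 and 5.81 CPM to 4.26, 2.96, 3.79 and 3.65 CPM. Efnb2, an ephrin of arteries, rose and Angpt2, a ligand that loosens vessels, fell (log2 fold changes 0.58 and -0.97), with the call of Efnb2 lost without cachexia animal 3, cachexia animal 4, PBS animal 2 or PBS animal 3 (adjusted p = 0.078, 0.1, 0.073 and 0.069), with the call of Angpt2 lost without cachexia animal 1, cachexia animal 2, cachexia animal 4, PBS animal 1, PBS animal 2 or PBS animal 4 (adjusted p = 0.068, 0.12, 0.14, 0.13, 0.059 and 0.085). Pecam1, common to endothelial cells, was at 29.7, 29.7, 32.1 and 34.7 CPM against 38, 30.8, 28.2 and 32.6 CPM (log2 fold change -0.04, SE 0.11), and Vwf, the von Willebrand factor gene, did not pass (adjusted p = 0.098). In the list of adhesion and angiocrine genes, 7 of 28 tested rose and 4 fell (Icam2, Jag1, Wnt2 and Angpt2), 25% and 14.3%. Without PBS animal 2 or PBS animal 4, 2 fell. The call of Icam2 was lost without cachexia animal 2, cachexia animal 3, cachexia animal 4, PBS animal 2, PBS animal 3 or PBS animal 4 (adjusted p = 0.064, 0.12, 0.057, 0.051, 0.14 and 0.087). Icam1, to which leukocyte integrins bind, was at 13.6, 14.8, 13.5 and 11.5 CPM against 4.98, 5.97, 6.72 and 7.69 CPM, Vcam1 rose 2.24-fold, and Jam2, a junction protein, stood at 44.8, 60.3, 41.8 and 66 CPM against 23.6, 17.3, 20.2 and 21.9 CPM. Icam1 kept 66.9% of its whole liver level in hepatocyte nuclei, Jam2 18.3% and Vcam1 13.8%.

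Most stellate cell genes did not pass the test. All 20 genes were tested, 4 rose and none fell (beside 11.8% and 10.3% of all genes), with a median of 0.07 (-0.04 when scaled to library totals). Pdgfra (chr5:75152291-75198204, mm10), a receptor of platelet-derived growth factors, was at 23.8, 25.7, 31.4 and 26.9 CPM against 15.4, 13.8, 15.1 and 18.7 CPM (log2 fold change 0.78, SE 0.13, adjusted p = 7.1e-05). Adamtsl2 (chr2:27079381-27108613, mm10), a matrix protein that binds TGF-beta binding proteins, stood at 23.2, 20.9, 31.6 and 25.4 CPM against 7.18, 7.04, 11.2 and 13 CPM, and Colec10, a collectin of the complement lectin pathway, at 89.2, 75, 97.3 and 70.7 CPM against 49.4, 37.1, 31.1 and 48.4 CPM. The lowest cachexia animal was above the highest PBS animal in each of them. Hgf, the hepatocyte growth factor, had a log2 fold change of 0.77, lost without cachexia animal 1, PBS animal 2, PBS animal 3 or PBS animal 4 (adjusted p = 0.053, 0.058, 0.061 and 0.068). The abundant genes Reln and Ntm, and Lrat, the enzyme that stores vitamin A as esters, did not pass (log2 fold changes -0.34, -0.24 and -0.57, with SE 0.16, 0.21 and 0.35). Dcn, which encodes the matrix proteoglycan decorin, was at 129, 142, 178 and 119.9 CPM against 137, 83.8, 85.3 and 118 CPM and did not pass either.

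Myofibroblast and portal fibroblast genes fell in part. Of 23 genes 20 were tested, none rose and 5 fell (25%, beside 10.3% of all genes), the median log2 fold change being -0.65. Timp1, Lox and Cthrc1 had at most 9 counts in a library and were not tested. The summed level was 171, 138, 202 and 116 CPM in cachexia animals and 237, 217, 252 and 299.9 CPM in PBS animals, with cachexia animal 3 nearest to the PBS animals. Col6a3 (chr1:90766860-90843971, mm10), a chain of collagen VI, fell from 30.5, 25.2, 28.9 and 34 CPM to 16.7, 13.2, 15.3 and 13 CPM (log2 fold change -1.03, SE 0.21, adjusted p = 0.00061). Col3a1 (chr1:45311538-45349706, mm10), the collagen III gene, was at 39.9, 29, 47 and 20.3 CPM against 66.4, 62.7, 74.5 and 87.6 CPM; its call was lost without cachexia animal 2, cachexia animal 4, PBS animal 3 or PBS animal 4 (adjusted p = 0.074, 0.11, 0.052 and 0.073). Loxl1, which cross-links elastin, and Tagln, a smooth muscle protein gene, had log2 fold changes of -1.75 and -1.06 at levels below 7 CPM, and Mfap4, a microfibril protein gene, one of -1.72, with the call of Mfap4 lost without cachexia animal 1, cachexia animal 2 or PBS animal 4 (adjusted p = 0.065, 0.059 and 0.087). Col1a1, the main chain of collagen I, was at 6.09, 4.97, 8.58 and 2.95 CPM against 11.5, 9.71, 14.9 and 17.3 CPM, and Acta2, smooth muscle actin, at 1.98, 2.43, 5.09 and 1.94 CPM against 6.43, 3.25, 6.53 and 9.45 CPM. Neither passed the test (adjusted p = 0.081 and 0.067), though Acta2 did without cachexia animal 3 or PBS animal 2 (adjusted p = 0.026 and 0.04). Without cachexia animal 2 or PBS animal 4, 3 genes of this list were lower, and 8 were with the 8 cachexia and PBS libraries fitted alone.

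Falls outnumbered rises among TGF-beta genes and, with all libraries, among matrix genes. In the list of matrix genes 35 of 36 were tested, 3 rose and 6 fell (8.57% and 17.1%, beside 11.8% and 10.3% of all genes). Without cachexia animal 4, 3 rose and 2 fell, and without PBS animal 4, 4 rose and 3 fell. The count of fallen genes was 10 when scaled to library totals and 11 with the 8 cachexia and PBS libraries fitted alone. The summed level of the list overlapped, at 1385 to 1527 CPM in cachexia animals and 1152 to 1511 CPM in PBS animals. Adamts2, which trims procollagen, was at 26.8, 25.9, 45.4 and 54.4 CPM against 15.2, 16.4, 13.8 and 19.1 CPM, and Mmp14, a membrane metalloproteinase, at 15.9, 20.5, 24 and 23.4 CPM against 8.59, 9.49, 10.5 and 10.2 CPM, both without overlap, and Col18a1, of basement membrane collagen, rose 1.8-fold. Lama4, a laminin chain of vessel walls, fell from 96.2, 70.2, 70.6 and 79.1 CPM to 55.5, 39.5, 46.5 and 31.1 CPM. Of 17 genes of the TGF-beta and SMAD response, 2 rose and 7 fell (11.8% and 41.2%), with a median of -0.56; 4 fell without cachexia animal 1, cachexia animal 3, PBS animal 3 or PBS animal 4. Ski, a repressor of SMAD proteins, rose from 66.1 ± 8.36 CPM to 131 ± 16.3 CPM (SD, n = 4 each), and Tgfbi had a log2 fold change of 0.73. Cyr61 (chr3:145646971-145649985, mm10), a matricellular target of TGF-beta and YAP, fell from 11.4, 6.83, 7.89 and 9.1 CPM to 1.04, 1.9, 0.71 and 1.48 CPM, 6.76-fold lower. Smad7, the inhibitory SMAD, fell by 1.05 on the log2 scale. Cyr61 and Ski are not among the genes low in hepatocyte nuclei.

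Bile duct genes mostly did not pass the test. Of 20 genes 19 were tested, 3 rose (15.8%, beside 11.8% of all genes) and none fell, and the median was 0.00. Bicc1 (chr10:70925096-71159634, mm10), an RNA-binding protein gene of ducts, was at 80.7, 77.1, 78.5 and 67.2 CPM against 45.7, 37.4, 44.3 and 45.2 CPM (log2 fold change 0.81, SE 0.17, adjusted p = 0.00089), with no overlap. Glis3, a transcription factor of ducts, stood at 72.6, 66.7, 69.4 and 73.5 CPM against 52.7, 43.1, 48.1 and 41.8 CPM, and its call was lost without cachexia animal 3, cachexia animal 4, PBS animal 2 or PBS animal 4 (adjusted p = 0.052, 0.062, 0.068 and 0.074). Sctr, the secretin receptor, was called from 7 counts over the 4 cachexia libraries, where the PBS libraries had none. No fold is given, as few reads stand behind it. Bicc1 and Glis3 kept 46.6% and 47.9% of their whole liver level in hepatocyte nuclei. The defining genes Krt19 (log2 fold change -0.72, SE 0.37), Epcam (-0.37, SE 0.43), Sox9 (0.39, SE 0.39) and Spp1 (0.24, SE 0.39) did not pass, and Krt19 was at 0.624 to 2.2 CPM over the 8 libraries; without cachexia animal 3 it was called lower (-1.2, adjusted p = 0.032).

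Lists of cells that could be carried over held genes at the floor and genes that were well measured. Globin genes Hba-a1, Hba-a2 and Hbb-bs had no count in any of the 8 libraries. Of 12 intestinal genes, Cdx1, Cdx2, Krt20 and 6 others were not tested and had at most 7 counts in a library. The list's summed level was 56.5 to 123 CPM in cachexia animals and 56.9 to 85.3 CPM in PBS animals, nearly all of it from Lgr5, a Wnt target gene also known from hepatocytes around the central vein, at 72.2 ± 33.1 CPM against 65.5 ± 12.6 CPM (log2 fold change 0.14, adjusted p = 0.79). Lgals4, a galectin gene, was at 2.84 ± 1.75 CPM against 5.24 ± 1.45 CPM and did not pass (log2 fold change -0.88, adjusted p = 0.064), but was called lower without cachexia animal 1 or PBS animal 1 (adjusted p = 0.0053 and 0.034). Hepatocyte nuclei held 119% and 144% of the whole liver level of these 2 genes. Of 5 tested mesothelial genes none passed, Gpm6a being the highest at 34.6 ± 6.86 CPM against 44.4 ± 9.1 CPM, and the single tested platelet gene, Itga2b, at 6.17 ± 0.589 CPM against 5.19 ± 1.25 CPM, did not pass either. In the list of erythroid genes Alas2 (chrX:150547417-150570622, mm10), the haem synthesis enzyme of red cell precursors, fell from 55.4, 74, 61.8 and 50.5 CPM to 6.29, 6.94, 4.73 and 2.72 CPM (log2 fold change -3.52, SE 0.28). Hepatocyte nuclei held 116% of its whole liver level, and Klf1, a transcription factor of that list, did not pass the test.

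Pathogen sensing and scavenging genes rose in part. Of their tested members, 12 of 22 and 7 of 19 are low in hepatocyte nuclei. Of 22 tested genes of Toll-like receptors, inflammasomes and pathogen sensing, 8 rose and 1 fell (36.4% and 4.55%, beside 11.8% and 10.3% of all genes). Without cachexia animal 1 or PBS animal 3, 4 rose, and 5 when scaled to library totals. Tlr8 and Naip2, sensors of RNA and of bacterial proteins, rose 1.7-fold and 1.55-fold. Tlr5, the flagellin receptor, fell from 18.1, 48.6, 32.6 and 35.3 CPM to 12.7, 11.3, 7.75 and 7.54 CPM, and it was 126% of its whole liver level in hepatocyte nuclei. Of 19 scavenging genes 9 rose and 1 fell (47.4% and 5.26%). Pros1, a bridge between dead cells and phagocytes, rose 2.77-fold, Scarb1, the HDL receptor, 1.9-fold and Lrp1, a large endocytic receptor, 2.16-fold, and hepatocyte nuclei held 95.7%, 115% and 124% of their whole liver levels. Scarf1, a scavenger receptor of endothelium, had a log2 fold change of -0.52, lost without cachexia animal 3, PBS animal 2 or PBS animal 3 (adjusted p = 0.1, 0.077 and 0.058). In the iron list, Tfrc, the transferrin receptor, rose 1.65-fold beside Cd163 and Slc11a1, 3 of 14 genes in all (21.4%).

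More interferon-induced genes fell than rose. Of 21 genes, 2 rose (Usp18 and Iigp1) and 5 fell (Oasl2, Ifit2, Oas1a, Rsad2 and Ifit1), 9.52% and 23.8% beside 11.8% and 10.3% of all genes. Oasl2 (chr5:114896934-114912245, mm10) was at 6.97, 3, 2.78 and 4.04 CPM against 6.35, 10.6, 6.48 and 8.33 CPM, and Ifit2 at 4.73, 3.91, 3.67 and 2.57 CPM against 6.64, 6.29, 5.75 and 6.51 CPM, with log2 fold changes of -0.92 (SE 0.23) and -0.75 (SE 0.21). The calls of Ifit1, Rsad2, Usp18 and Iigp1 were lost without cachexia animal 2, cachexia animal 4 or PBS animal 2 (adjusted p = 0.065, 0.066 and 0.084), without cachexia animal 2, cachexia animal 4 or PBS animal 2 (adjusted p = 0.11, 0.054 and 0.065), without cachexia animal 4, PBS animal 1 or PBS animal 3 (adjusted p = 0.065, 0.067 and 0.057) and without cachexia animal 1, PBS animal 2 or PBS animal 3 (adjusted p = 0.14, 0.0504 and 0.085), in that order. Oasl2 of cachexia animal 1 overlapped with PBS animals, and the other 3 animals were below them. The count of fallen members ran from 3 (without cachexia animal 2, cachexia animal 4 or PBS animal 2) to 9 (without cachexia animal 1), and that of risen members was 1 without cachexia animal 1, cachexia animal 4, PBS animal 1 or PBS animal 2 and 0 without PBS animal 3. Of 10 tested MHC class II genes, 1 rose and 1 fell (10% each, near the shares of all genes). Ctss, the protease that frees the class II groove, was at 28.4, 17.6, 20.5 and 20.1 CPM against 13.5, 12.6, 12.9 and 14.1 CPM, while Cd74, the invariant chain, had a log2 fold change of -0.74 whose call was lost without cachexia animal 2, cachexia animal 3, cachexia animal 4, PBS animal 1, PBS animal 3 or PBS animal 4 (adjusted p = 0.15, 0.094, 0.14, 0.089, 0.11 and 0.077).

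Genes of dividing cells fell in part. Of 25 cell cycle genes, 24 were tested, 11 fell (45.8%, beside 10.3% of all genes) and none rose, with a median of -1.01. Without cachexia animals 2, 3 or 4 or PBS animal 2, 7 fell. Their summed level was 26.3, 25.4, 24.5 and 22.4 CPM in cachexia animals and 47.8, 51.3, 44.1 and 58.1 CPM in PBS animals. Mki67 (chr7:135689788-135716379, mm10), the proliferation marker, fell from 4.36, 5.33, 3.85 and 5.16 CPM to between 0.758 and 1.77 CPM, 3.72-fold lower (log2 fold change -1.89, SE 0.41), and Top2a, the topoisomerase of dividing cells, from 1.5 ± 0.492 CPM to 0.409 ± 0.121 CPM. All cachexia values of both lay below all PBS values. Hepatocyte nuclei held 27.7% and 31.7% of the whole liver level of these 2 genes in the PBS animals of the other cohorts, but 108% for Ccne2, a cyclin of S phase entry that fell by 1.52 on the log2 scale.

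The same comparison was made in the hepatocyte nuclei of the same animals, where most nuclei of other cells have been removed. There, 2010 of 14054 genes were higher and 1499 lower in C26 cachexia (14.3% and 10.7%). Of the 42 risen members of the cell type lists, 30 were also called higher there, 71.4% of the 42 and 63.8% of the 47 members called higher in hepatocyte nuclei. Of the 18 fallen members, 8 (44.4%) were called lower. Over all genes, 83.2% of those risen and 69.3% of those fallen in whole liver were called the same way in hepatocyte nuclei. No gene passed the test of the difference between the effects in both fractions (0 of 14054 genes higher and 0 lower, 295 at an unadjusted p under 0.05, and 0 and 1 with DESeq2). With the animal as a block, 25 of 14054 genes were higher and 37 lower in whole liver nuclei. Of these, 9 of the 37 and none of the 25 are low in hepatocyte nuclei, beside 12.6% of all 14054 genes.

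No member of the 15 cell type lists differed between fractions in either fit. With the animal as a block, 1298 of 1732 genes low in hepatocyte nuclei had a negative difference (median -0.25), beside 7588 of 14054 genes (median -0.02). So did 18 of 22 sinusoidal, 19 of 22 myofibroblast and 12 of 23 Kupffer cell members. The called differences ran from -2.61 for Psme2b to 2.29 for Saa2. Those named next are members of other lists, and Mt2. Osmr had a log2 fold change of 2.4 in whole liver and 3.76 in hepatocyte nuclei, a difference of -1.38 (SE 0.22, adjusted p = 0.0012 with the animal as a block). Its level in hepatocyte nuclei was 59.6 ± 9.83 CPM in cachexia and 4.44 ± 2.04 CPM in PBS animals, where whole liver nuclei had 114 ± 12.3 CPM and 22.1 ± 7.01 CPM. Mmp14 and Tlr4, the lipopolysaccharide receptor, also had a lower log2 fold change in whole liver (differences -1.0 and -1.43, adjusted p = 0.014 and 0.032). Tlr4 rose in hepatocyte nuclei (log2 fold change 1.14, adjusted p = 0.0028). Its log2 fold change of -0.28 in whole liver did not pass the test (adjusted p = 0.37). The acute phase genes Saa2 and Orm3 and the metallothionein Mt2 rose more in whole liver, by 2.29, 1.99 and 2.08 on the log2 scale (adjusted p = 0.038, 0.0016 and 0.034). The whole liver log2 fold change of Saa2 was 7.71, and 8.38 without PBS animal 4. Genes of other cells were still measured in hepatocyte nuclei, at 14.3% of the whole liver level for Stab2 and 12.2% for Vsig4, and the part of their cells in the effects measured there was not tested.

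**Figure D4:**
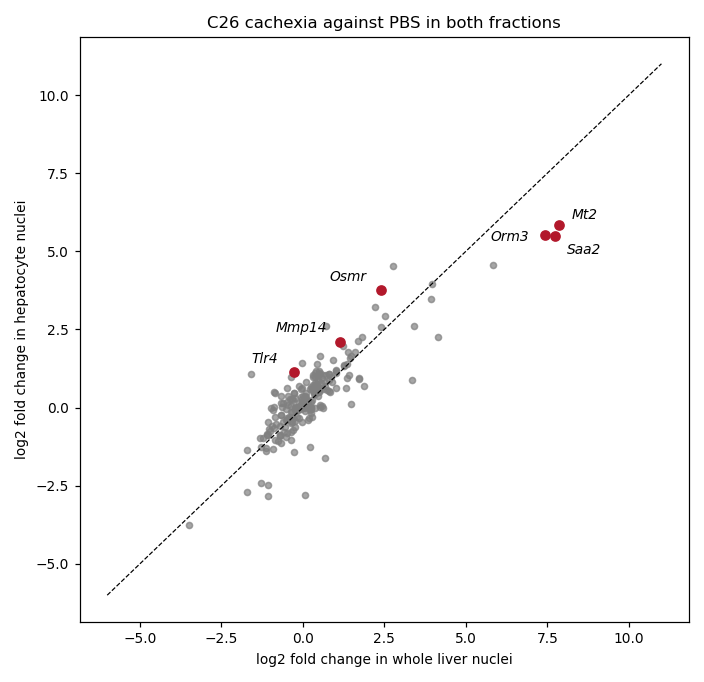
Log2 fold change of cachexia against PBS in whole liver nuclei (x axis) and in hepatocyte nuclei (y axis) of the same animals, for the tested members of the cell type lists other than hepatocytes (grey) and for 6 genes whose effects differed between fractions with the animal as a block (red, named). The dashed line marks equal effects. Osmr, Mmp14 and Tlr4 lie above it, and Saa2, Orm3 and Mt2 below.

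Set beside 8025 cachexia, a share of the myeloid, fibroblast and duct genes had a lower log2 fold change in C26. In 8025 animals 2569 genes were higher and 2457 lower (18.7% and 17.9%), and in the test of the difference 270 genes were higher in C26 and 632 lower (1.97% and 4.6%, 6.57% in all). Of the 42 members that rose in C26, 36 rose in 8025 animals too (85.7% of the 42 and 40.0% of the 90 that rose there), beside 59% and 37.4% for all genes. Members with a lower log2 fold change in C26 numbered 6 of 23 in the Kupffer cell list and 7 of 19 in the monocyte list. In the neutrophil list they were 4 of 13 (Csf3r, Mmp9, Trem1 and Clec4d). Clec4d was also called higher in C26 without PBS animal 1 (adjusted p = 0.01). In the myofibroblast list they were 7 of 20 and in the bile duct list 7 of 19. None of these lists had a member with a higher one. Lower is meant with the sign, so that it takes in genes that fell in C26. Itgam rose by 1.46 in C26 and by 3.86 in 8025 on the log2 scale (difference -2.4, SE 0.33, adjusted p = 5.9e-05). Csf3r rose by 1.0 and 3.05 (difference -2.04, adjusted p = 7e-05), and Ccr2 had log2 fold changes of 0.29 and 3.03 (adjusted p = 0.00017). Col3a1 and Loxl1 were called in opposite directions in both tumours. Col3a1, whose C26 call was lost without cachexia animal 2, cachexia animal 4, PBS animal 3 or PBS animal 4 (adjusted p = 0.074, 0.11, 0.052 and 0.073), had log2 fold changes of -1.09 in C26 and 1.1 in 8025, and Loxl1 of -1.75 and 1.72 (differences -2.19 and -3.48, adjusted p = 0.0086 and 0.0014). Signs were opposite as well in Col1a1 (-1.23 and 2.05), which was called in 8025 alone, and in Col6a3 (-1.03 and 0.10) and Cyr61 (-2.76 and 0.53), which were called in C26 alone. Mki67 had log2 fold changes of -1.89 in C26 and 1.41 in 8025 (adjusted p = 0.00031), and Krt19, called lower in C26 without cachexia animal 3 (adjusted p = 0.032), had -0.72 and 2.24 (adjusted p = 0.0021). Clec9a, of the dendritic list, is an exception, with a larger effect in C26 (1.65 against 0.61, adjusted p = 0.036). The endothelial genes Plxnc1 and Dnase1l3 had log2 fold changes of 1.43 and 1.28, and of -0.89 and -0.94, with differences of 0.16 (SE 0.25) and 0.04 (SE 0.23) that did not pass the test.

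**Figure D5:**
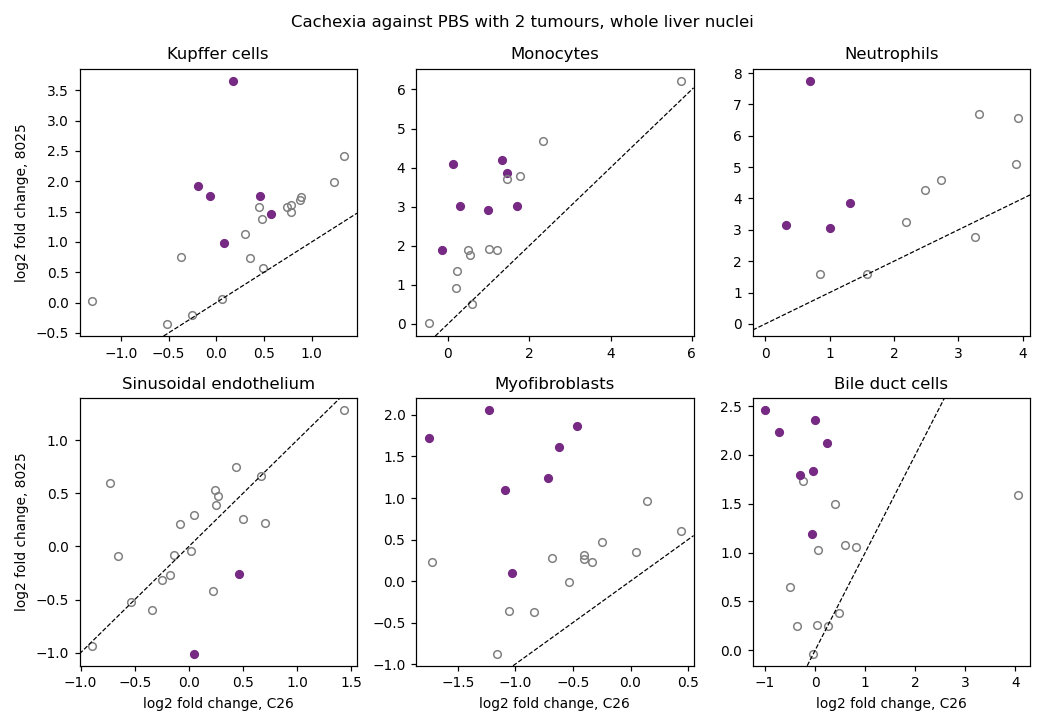
Log2 fold change in C26 cachexia (x axis) and in 8025 cachexia (y axis), each against its own PBS animals, for the tested members of 6 lists (panels) in whole liver nuclei. Filled points differed between both effects at an adjusted p under 0.05, and the dashed line marks equal effects. Filled points of the monocyte, neutrophil, myofibroblast, bile duct and Kupffer cell panels lie above the line, where the 8025 log2 fold change is higher. The 2 of the sinusoidal panel (F8 and Ehd3) lie below. Axis ranges differ between panels.

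The effects of NC26 tumours, which leave body weight stable, were set beside those of C26 cachexia. NC26 animals had 97 genes higher and 3 lower than their PBS animals (0.706% and 0.0218%), and 230 effects were higher and 237 lower in C26 cachexia than in NC26 (1.67% and 1.73%, 3.4% in all). Without cachexia animal 4 these 2 counts were 147 and 117. Of the 42 risen members, 3 rose in NC26 animals as well (Cd5l, Csf1r and Fcgr4), with the call of Cd5l lost without cachexia animal 1 (adjusted p = 0.055), with the call of Csf1r lost without cachexia animal 1, cachexia animal 3, PBS animal 1, PBS animal 2 or PBS animal 3 (adjusted p = 0.17, 0.057, 0.1, 0.055 and 0.11) in C26. That is 7.14% of the 42, near the 4.86% of all risen genes. From the other side, it is 75% of the 4 members called higher in NC26, beside 81.4% for all genes. Median log2 fold changes in NC26 were 0.61, 0.69 and 0.78 in the Kupffer cell, monocyte and neutrophil lists. In C26 cachexia they were 0.44, 0.99 and 2.19. Clec9a had log2 fold changes of 1.65 in C26 cachexia and 0.52 in NC26 (adjusted p of the difference = 0.035), Csf2rb2 of 3.93 and 1.11 (adjusted p = 1.8e-05), and Osmr of 2.37 and 1.0 (adjusted p = 0.0095). Mki67 and Top2a fell in C26 cachexia and had log2 fold changes of 0.90 and 1.68 in NC26, differences that passed the test (adjusted p = 0.0031 and 0.00044). In the Kupffer cell, monocyte and neutrophil lists no member differed between both tumours. Vsig4 had 0.89 in C26 and 0.69 in NC26 (difference 0.20, SE 0.27), and Itgam 1.46 and 0.87 (difference 0.59, SE 0.34), neither of which passed the test.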

How the data were processed

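RNA was measured in nuclei of whole liver and in bead-bound hepatocyte nuclei of the same animals. Per the labels' protocols, total RNA of nuclei was made into stranded libraries without poly-A selection and sequenced as paired 50-base reads. The submitters' processing notes name STAR 2.4.2a and DESeq2 1.24.0, and the build mm10. The authors deposited raw counts per gene, with no normalization and with gene positions and lengths. Whether counting used strand is not given in the sources used here, so reads of overlapping genes cannot be told apart.

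From these counts, genes were filtered with filterByExpr by group, scaled with TMM and tested by quasi-likelihood in edgeR 4.0.16 (R 4.3.3, limma 3.58.1) over all 36 whole liver libraries in 9 groups, with Benjamini-Hochberg adjustment over the 13738 genes tested and calls at an adjusted p under 0.05. Differences between tumours were contrasts in that fit. The fit with hepatocyte nuclei held all 72 libraries in 18 groups. Standard errors were derived from the fold change and F. CPM values use the TMM-scaled library size, and deposited starts were counted from 0 and are given counted from 1. Total counts were 12.2 M to 30.3 M over the 36 libraries, which limits precision for genes with few counts. Elsewhere the spread between animals, which exceeded counting error in every C26 pair, sets it.

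Alternatives were edgeR's relative log expression factors, library totals, other filters, DESeq2 1.42.0, fewer libraries in the fit, replicate blocks and leaving out each library in turn. Leaving out 5 genes with reads like ribosomal RNA was added after the data were seen. On simulated counts with known changes the test was checked before use. Named genes were the largest called changes with no overlap of the groups and at least 5 CPM, the 3 members of each list with the smallest p, the 2 members of each cell type list with the highest CPM, and fixed defining markers. Other list members, Tlr4, Clec4d, Mmp9 and Trem1 were named after their values were seen. The members and lists were chosen with earlier results of these data known. Promoters come from RefSeq (GRCm38.p6), and 47 tested genes of the 3 myeloid lists matched one. The tumour libraries of the MC38 cohort served only for the estimate of the spread.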

Additional observations from a re-analysis of the deposited data

Results flagged for a closer look

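For some genes described above, 1 library of a group of 4 stood apart by Dixon's test, which chance gives in about 1 in 20 groups. The highest of the 4 cachexia libraries stood far from the others in cachexia animal 1 for Clec4f (74.3 CPM), Csf1r (50.4 CPM), Oas1a (5.46 CPM) and Plac8 (13.6 CPM). The highest of the 4 cachexia libraries stood far from the others in cachexia animal 2 for Lgr5 (122 CPM). The highest of the 4 cachexia libraries stood far from the others in cachexia animal 3 for Acta2 (5.09 CPM), Cxcl14 (3.43 CPM), Krt19 (1.77 CPM), Saa2 (1307 CPM), Selp (10.9 CPM), Tagln (3.43 CPM) and Vwf (23.2 CPM). The highest of the 4 PBS libraries stood far from the others in PBS animal 1 for Ccl6 (2.91 CPM), Clca3a1 (15.4 CPM), Hgf (131 CPM), Jchain (3.82 CPM), Lyve1 (10.2 CPM), Mrc1 (251 CPM) and Osmr (32.5 CPM). The highest of the 4 PBS libraries stood far from the others in PBS animal 2 for Cd4 (1.92 CPM) and Tox (436 CPM). The highest of the 4 PBS libraries stood far from the others in PBS animal 4 for Mmp8 (0.117 CPM). The lowest of the 4 cachexia libraries stood far from the others in cachexia animal 2 for Top2a (0.227 CPM). The lowest of the 4 cachexia libraries stood far from the others in cachexia animal 3 for Tgfb1 (4.97 CPM). The lowest of the 4 PBS libraries stood far from the others in PBS animal 1 for Fcgr4 (1.04 CPM), Lgals4 (3.07 CPM), S100a8 (0 CPM) and Tnfrsf1a (16.1 CPM). The lowest of the 4 PBS libraries stood far from the others in PBS animal 2 for Bicc1 (37.4 CPM).

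Effects of some genes differed between tumours. The C26 effect was higher than the 8025 effect, in the test of the difference itself (adjusted p under 0.05), by a log2 difference of 1.04 for Clec9a, 1.11 for Cyp2f2, 1.05 for Ehd3, 0.72 for F8 and 1.03 for Ntm. The C26 effect was lower than the 8025 effect, in the test of the difference itself (adjusted p under 0.05), by a log2 difference of -2.67 for Ccl6, -2.74 for Ccr2, -2.54 for Clec4d, -0.87 for Clec4f, -3.29 for Col1a1, -2.19 for Col3a1, -1.13 for Col6a3, -1.31 for Csf1r, -1.31 for Csf2rb, -2.04 for Csf3r, -1.18 for Ctss, -3.28 for Cyr61, -2.86 for F13a1, -1.91 for Fcgr3, -1.93 for Hsp90aa1, -5.54 for Hspa1b, -0.95 for Il4ra, -2.4 for Itgam, -2.95 for Krt19, -3.48 for Loxl1, -3.31 for Mki67, -2.82 for Mmp9, -2.17 for Nes, -1.58 for Oas1a, -1.66 for Oasl2, -0.71 for Pecam1, -1.94 for Selp, -1.88 for Spp1, -1.23 for Tgfb1, -0.93 for Tgfbi, -0.91 for Timd4, -1.09 for Tlr8, -3.28 for Top2a and -7.05 for Trem1. The C26 effect was higher than the NC26 effect, in the test of the difference itself (adjusted p under 0.05), by a log2 difference of 1.05 for Adamts2, 1.5 for Clca3a1, 1.14 for Clec9a, 2.82 for Csf2rb2, 3.65 for Fkbp5, 1.58 for Hpx, 1.46 for Il17ra, 0.88 for Il4ra, 3.01 for Ms4a4a, 2.32 for Ms4a8a, 1.36 for Osmr, 0.92 for Scarb1, 1.07 for Ski, 4.77 for Slc10a6, 4.85 for Svopl and 0.94 for Tfrc. The C26 effect was lower than the NC26 effect, in the test of the difference itself (adjusted p under 0.05), by a log2 difference of -3.0 for Alas2, -2.07 for Ccr9, -2.08 for Clstn2, -2.58 for Cyr61, -5.37 for Hspa1b, -1.16 for Ifit2, -2.79 for Mki67, -4.98 for Mup21, -2.23 for Nes, -1.56 for Oas1a, -1.39 for Oasl2, -0.99 for Pcdh12, -0.93 for Rgs7bp, -4.1 for Slc22a28, -1.49 for Tlr5 and -3.58 for Top2a.

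Between whole liver and hepatocyte nuclei of the same animals, with the animal as a block, the C26 effects differed by -1.0 for Mmp14, 2.08 for Mt2, 1.99 for Orm3, -1.38 for Osmr, 2.29 for Saa2 and -1.43 for Tlr4 on the log2 scale.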

How the results depend on the processing

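In 4577 combinations of gene and setting, 4243 kept their side of the threshold, 305 lost and 29 gained a call. No gene called in the main fit or in the alternative reversed its direction. Changes of sign in genes called in neither were not counted. Scaling to library totals raised the genes lower in cachexia to 2260. With DESeq2, 349 effects were higher in C26 than in NC26, and 1 effect was lower in whole liver than in hepatocyte nuclei. Genes at least 8-fold lower in hepatocyte nuclei numbered 281. Replicate numbers do not pair cachexia and PBS animals: deviations from the group means of animals with the same number correlated at -0.04, 0.07, -0.07 and 0.01, and 0 of 4 matched its own number best. With the replicate block, 1469 genes were higher and 1206 lower in cachexia, and 153 effects were higher and 151 lower in C26 than in NC26. The animal pairs both fractions, and with it as a replicate block 25 effects were higher and 37 lower in whole liver. Leaving out 1 library at a time gave 1345 to 1518 genes higher and 1037 to 1252 lower, 11 (without cachexia animal 2) to 18 fallen cell type members, and for C26 against NC26 147 (without cachexia animal 4 or PBS animal 4) to 284 effects higher and 117 (without cachexia animal 4; 140 without cachexia animal 3) to 259 lower. The cause of these changes was not tested. Without the 5 genes with reads like ribosomal RNA, 1568 genes were higher and 1505 lower. Of the hepatocyte list 1 rose when scaled to library totals and 5 with the 8 cachexia and PBS libraries fitted alone. With the replicate block, the fallen genes numbered 4 in the TGF-beta list, 2 in the adhesion list and 1 in the sinusoidal list. Depth limits genes with few counts, such as Ly6c2, Ly6g and Nkg7, which could not be tested. Counts cover no error of library making.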

Other observations

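The 4 tested heat shock genes of the stress list fell in whole liver nuclei of C26 cachexia animals. Of 13 tested immediate early and stress genes, 5 fell and 2 rose (Ier3 and Junb), 38.5% and 15.4% beside 10.3% and 11.8% of all genes. Hspa1b, an inducible chaperone of the HSP70 family, was at 0.156, 0, 0 and 0.233 CPM against 5.4, 1.01, 20.7 and 6.34 CPM in PBS animals, with a log2 fold change of -6.57 (-7.28 without cachexia animal 4 and -5.59 without PBS animal 3). Hspa1a, a near-identical copy, was not tested, so reads may be split between both. Hsph1 and Hsp90aa1, which encode further chaperones, fell from 183 ± 82.5 CPM to 24.7 ± 11.7 CPM and from 99.3 ± 48.3 CPM to 18.4 ± 3.53 CPM (SD, n = 4 each). The other 2 that fell were Dnajb1, a co-chaperone of HSP70 (log2 fold change -1.67), and Jund, a subunit of the AP-1 transcription factor (-0.82). The PBS animals differed widely among themselves in Hspa1b. In hepatocyte nuclei the log2 fold changes of Hspa1b and Hsph1 were -6.38 and -3.07. The call of Jund was lost without cachexia animal 1, cachexia animal 2, cachexia animal 3, PBS animal 1 or PBS animal 4 (adjusted p = 0.13, 0.11, 0.15, 0.27 and 0.075). The call of Ier3 was lost without cachexia animal 1, cachexia animal 2, cachexia animal 4, PBS animal 1 or PBS animal 2 (adjusted p = 0.072, 0.068, 0.052, 0.068 and 0.1). The call of Junb was lost without cachexia animal 1, cachexia animal 3, cachexia animal 4, PBS animal 1 or PBS animal 2 (adjusted p = 0.067, 0.096, 0.064, 0.13 and 0.096).

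Of 14 glucocorticoid-induced genes, 2 rose (14.3%, near the 11.8% of all genes) and none fell. With the 8 cachexia and PBS libraries fitted alone, 4 rose. Fkbp5, a co-chaperone of the glucocorticoid receptor, was at 682, 1657, 944 and 1901 CPM in cachexia animals and 232, 127, 71.8 and 78.2 CPM in PBS animals (log2 fold change 3.35, SE 0.71). Cdkn1a, the cell cycle inhibitor p21, was at 1.04, 7.66, 1.83 and 7.46 CPM against 0.332, 0.48, 0.292 and 0.645 CPM. Fkbp5 had a log2 fold change of -0.31 in NC26 animals, and the difference from C26 passed the test (adjusted p = 0.026), while that from 8025 (1.86) did not (adjusted p = 0.37).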
